A study of Mus musculus with 19 samples.

Results

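The comparison described here asks whether tumours with and without lactate dehydrogenase A (LDHA) knockdown differed in their transcriptional response to CTLA-4 blockade. It was made for each gene as the log2 response to anti-CTLA-4 in LDHA-knockdown tumours minus the log2 response in control tumours, and all 19 of the 19 sequenced tumours entered it. The tumours grew in syngeneic BALB/cAnN mice from 1000000 implanted cells of 4T1, a mouse mammary carcinoma line that does not depend on hormones and spreads readily. The groups were control (4T1-Sc) tumours given IgG (n = 4, replicates 1, 3, 4 and 5), control tumours given anti-CTLA-4 (n = 5), LDHA-knockdown (4T1-KD, LDHA-KD) tumours given IgG (n = 5) and LDHA-KD tumours given anti-CTLA-4 (n = 5). Treatment began 3 days after implantation and consisted of 3 doses 3 days apart. The sources used here do not give how the knockdown was made, whether each line is a single clone, which antibody clone was injected or the age of the mice. Whether the tumours of a group grew in different mice is not stated in the labels, so p-values refer to the spread among these tumours, part of which may be technical.

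LDHA converts pyruvate to lactate and so lets tumour cells run glycolysis at a high rate and acidify their surroundings. CTLA-4 is an inhibitory receptor on activated and regulatory T cells that competes with the costimulatory receptor CD28 for its ligands on antigen-presenting cells, and anti-CTLA-4 antibodies block that contact. Regulatory T cells, which carry the transcription factor Foxp3, hold large amounts of CTLA-4 and restrain other T cells in tumours. The series title places its question at the stability of these cells in tumours with little glycolysis. In bulk tumour RNA a lower value can mean fewer cells of a type or less RNA per cell, and these cannot be told apart.

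No gene passed an adjusted p of 0.05 for a difference in response. With edgeR's quasi-likelihood test on 16763 genes the count was 0 (0% of genes tested), and the smallest adjusted p was 0.9998. At an unadjusted p under 0.05 there were 415 genes (2.48%), of which 260 (1.55%) had a higher response in LDHA-KD tumours and 155 (0.925%) a lower one. Limma voom and DESeq2 also called 0 genes, with 357 (2.13%) and 451 (2.69%) genes at an unadjusted p under 0.05, and the smallest adjusted p of DESeq2 was 0.0926, for Stc1. If no gene differed, a share of about 0.05 of genes would have an unadjusted p under 0.05 on average. The share in each tool was below that. Since no gene passed, the genes and groups below are described by their values. Every adjusted p for a difference among the named genes is 0.9998 in edgeR.

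The precision of the difference was limited and depended on the level of the gene. The 95% interval of a gene's log2 difference reached 0.401 to either side at the median, with an interquartile range of 0.274 to 0.720. It reached 0.276 to either side at the median for the 6366 genes with a mean log2 CPM (counts per 1000000 counts) of at least 5 and 1.04 for the 3135 genes below 0. The whole interval lay within 1 log2 unit of 0 for 12725 genes (75.9%). For these genes a difference larger than 2-fold in either direction lay outside the interval. How far smaller differences also lay outside it depended on the width of each gene's interval.

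The responses in the tumour types ran in the same direction for most genes. Across the 16763 genes, which are not independent replicates, the responses had a Pearson r of 0.465 and a Spearman rho of 0.441, and 66.7% of genes had the same sign. The control and LDHA-KD responses share no library. The median difference was 0.00, and 50.8% of genes had a positive difference, which is the background for the counts below. At an unadjusted p under 0.05 in both tumour types, 346 genes had responses in the same direction and 11 in opposite directions. In 9 of these 11, namely Stc1, Cdh15, Fst, Efnb3, Ccdc80, Smoc2, Tmem2, Wnk3 and Ncald, the value was positive in LDHA-KD tumours and negative in control tumours, and in Ccdc38 and Gm7993 the reverse.

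**Figure D1:**
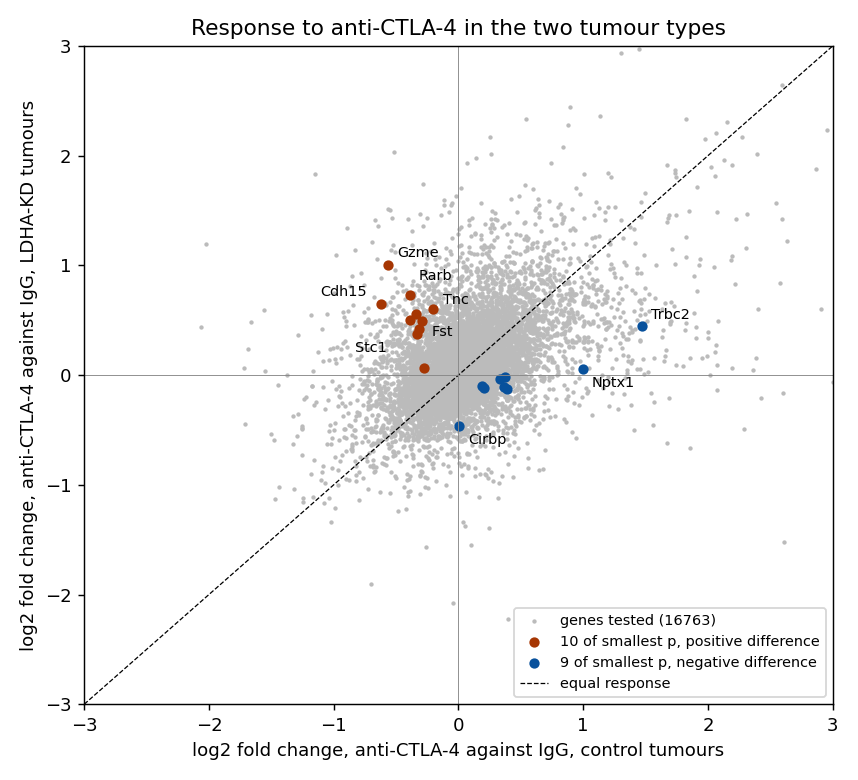
Each grey point is 1 of the 16763 genes tested, placed by its log2 fold change for anti-CTLA-4 against IgG in control tumours (x axis) and in LDHA-KD tumours (y axis), with 8 genes beyond the axes; the dashed line marks equal responses. The 10 genes of smallest p with a positive difference (red) lie above the line at negative control responses, and 9 with a negative difference (blue) lie below it, from Cirbp at a control response of 0.00 to Trbc2 at 1.47.

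Libraries were also compared by complete separation. In LDHA-KD tumours 137 genes (0.817%) had every anti-CTLA-4 library above every IgG library and 95 (0.567%) had every one below. In control tumours these counts were 93 (0.555%) and 120 (0.716%). With 4 IgG libraries there, against 5 in LDHA-KD tumours, label order alone separates more genes. The counts of the tumour types are therefore not comparable. Label order alone rarely separates the libraries in both tumour types, so a count of 0 there says little. For 0 genes were the libraries apart in opposite directions in the tumour types. For 6 genes they were apart in the same direction in both, upward for Sh2d1a, which encodes a signalling adaptor of T and natural killer cells, Il13ra2, a decoy receptor for interleukin-13, Tmem156 and Gm15987, and downward for Chaf1b, a subunit of a histone chaperone, and Accs.

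Some features of the libraries moved with the comparison. Gene counts ran from 31783272 to 43266699 per library. On the second principal component replicates 3 and 5 of the LDHA-KD anti-CTLA-4 group were farthest from the other libraries and replicates 3 and 5 of the control anti-CTLA-4 group next, and the LDHA-KD replicates 3 and 5 also had the highest shares of reads outside genes (13.8% and 12.1%, against 8.42% to 11.6% in the other 17 libraries). Leaving out these LDHA-KD libraries, a choice made after seeing the data, changed the split at an unadjusted p under 0.05 from 260 higher and 155 lower to 143 higher and 165 lower, and with the share outside genes as a covariate it was 185 and 219. The difference also moved with gene length: its median was -0.10 in the fifth of genes with the shortest exons (102 to 1962 bases) and 0.07 in the fifth with the longest (at least 7007 bases), where 33.9% and 72.9% of genes had a positive difference. Control anti-CTLA-4 libraries had on average less signal in long relative to short genes (a log2 contrast of -0.13 against the mean of all libraries) and LDHA-KD anti-CTLA-4 libraries more (0.10, from -0.22 to 0.31 among the 5), with 0.01 and 0.02 in the IgG groups. The part of depth outside genes or of gene length in the differences below was not tested beyond these values.

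The knockdown was visible in every library. Ldha (chromosome 7, 46841475 to 46855627, GRCm38) was at 1926, 1624, 1567 and 1283 CPM in control IgG tumours and at 2244, 1524, 1955, 1910.3 and 1935 CPM in control anti-CTLA-4 tumours. Its LDHA-KD levels were 478, 469.9, 452, 506 and 519 CPM under IgG and 566, 485, 584, 525 and 545 CPM under blockade. All 10 LDHA-KD libraries were below all 9 control libraries, the apart-lying replicates 3 and 5 included. The log2 response of Ldha was 0.26 ± 0.11 (SE) in control and 0.16 ± 0.10 in LDHA-KD tumours, a difference of -0.10 (95% interval -0.41 to 0.21), and that of Ldhb, which encodes the other main subunit of the enzyme, differed by -0.09 (-0.66 to 0.48). The labelled tissue was checked with the epithelial tumour cell list, whose 19 genes were all tested: their summed level was 6424 to 8303 CPM in control IgG and 4185 to 4464 CPM in LDHA-KD IgG tumours, and their median difference in response was 0.05.

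For the genes of the blockade's target axis no difference in response was resolved. Ctla4 itself was at 3.70, 5.28, 3.00 and 3.28 CPM in control IgG tumours and at 6.17, 5.38, 6.25, 6.09 and 8.63 CPM with anti-CTLA-4. LDHA-KD tumours had it at 6.89, 7.20, 9.08, 9.54 and 10.0 CPM under IgG and 12.0, 9.83, 16.4, 16.9 and 19.4 CPM under blockade. Every anti-CTLA-4 library lay above every IgG library of control tumours, and in LDHA-KD tumours replicate 2 overlapped the IgG range. The log2 responses were 0.77 ± 0.21 and 0.80 ± 0.19, so the difference was 0.04 with a 95% interval of -0.55 to 0.62. Cd28, the activating counterpart of CTLA-4, had a difference of -0.43 (-1.32 to 0.46).

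Foxp3 (chromosome X, 7573644 to 7595245) was at 1.75, 2.58, 2.16 and 1.08 CPM in control IgG tumours and at 2.44, 2.93, 2.85, 1.90 and 3.68 CPM with anti-CTLA-4. Levels in LDHA-KD tumours were 3.89, 4.59, 5.72, 3.98 and 5.72 CPM under IgG and 4.70, 3.78, 9.45, 9.14 and 12.3 CPM under blockade. Replicates 3, 4 and 5 of the last group were above all others, and replicates 1 and 2, at 4.70 and 3.78 CPM, were not above the IgG tumours. The difference in response was 0.18 (-0.70 to 1.05), and -0.24 without LDHA-KD anti-CTLA-4 replicates 3 and 5. Of the 18 regulatory T cell genes, 12 had a positive difference, 0 had an unadjusted p under 0.05, and the median difference was 0.05 with median responses of 0.58 and 0.54 in the control and LDHA-KD types. Among them Il2ra, the high-affinity interleukin-2 receptor chain, differed by 0.15 (-0.58 to 0.88), Tnfrsf18, which encodes the costimulator GITR, by -0.36 (-0.93 to 0.21), and Lrrc32, which encodes the surface docking protein for latent TGF-beta, by 0.61 (-0.03 to 1.25). Without the LDHA-KD replicates 3 and 5, 6 of the 18 were positive and the median was -0.12. The summed level of the list was 1421 to 2053 CPM in control IgG and 1077 to 1311 CPM in LDHA-KD IgG tumours, while Foxp3 was higher in the latter. Much of that level may come from other cells, so the list is not specific to regulatory T cells here. The source of its members was not tested.

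Icos, a costimulatory receptor of activated and regulatory T cells, was at 3.25, 9.34, 5.60 and 4.45 CPM in control IgG tumours and at 10.8, 12.2, 13.9, 8.55 and 17.1 CPM with anti-CTLA-4. Levels in LDHA-KD tumours were 18.7, 16.8, 23.2, 16.5 and 24.3 CPM under IgG and 23.6, 29.9, 39.1, 42.4 and 35.0 CPM under blockade. Its response was 1.14 ± 0.26 in control and 0.77 ± 0.23 in LDHA-KD tumours, a difference of -0.37 (-1.08 to 0.34). Of the other checkpoint genes, Pdcd1, which encodes PD-1, differed by 0.07 (-0.60 to 0.74) and Cd274, which encodes its ligand PD-L1, by 0.09 (-0.84 to 1.03). Cd274 stood at 129.8 CPM in control anti-CTLA-4 replicate 5, against 55.9 to 70.7 CPM in the other 4 libraries of that group, and at 244 and 189 CPM in LDHA-KD anti-CTLA-4 replicates 3 and 5, against 63.7 to 119 CPM in the other 3. Over the 18 T cell activation and checkpoint genes the median difference was 0.06, with 10 positive.

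**Figure D2:**
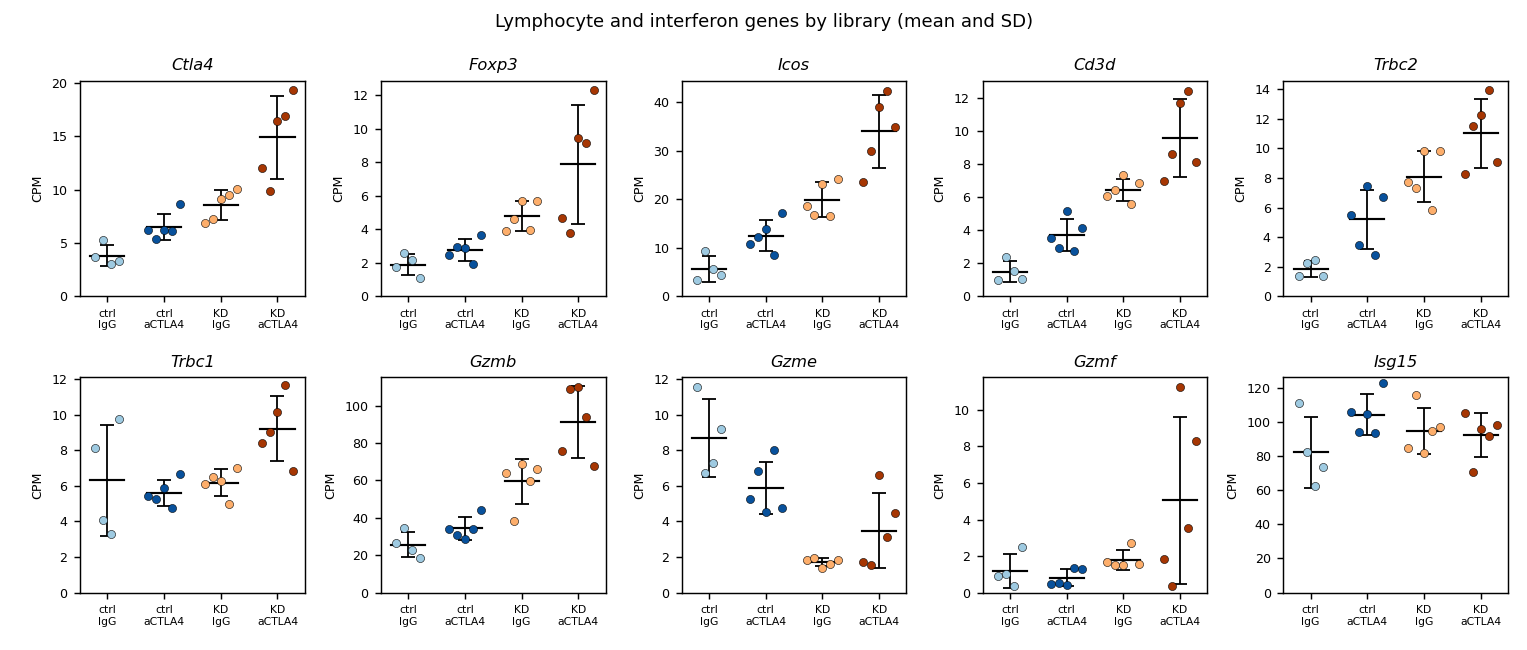
Level of 10 lymphocyte and interferon genes in CPM (y axis, from 0) in each of the 19 libraries, grouped by tumour type and treatment on the x axis (ctrl, control; KD, LDHA-KD; aCTLA4, anti-CTLA-4), with bars for the mean and SD of the group (n = 4 for control IgG, n = 5 for the others). Ctla4, Icos and Cd3d were higher with anti-CTLA-4 in both tumour types on average, while the Gzme and Gzmf means with anti-CTLA-4 were above those with IgG in LDHA-KD tumours and below them in control tumours.

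T cell receptor genes had larger mean responses in control than in LDHA-KD tumours. The list of 23 receptor and signalling genes had a median response of 0.88 in the control type and 0.55 in the LDHA-KD type, and a median difference of -0.27 with 5 positive, 1 higher (Trbc1) and 2 lower (Trbc2 and Cd3d) at an unadjusted p under 0.05. The median stayed between -0.60 and -0.15 when each library was left out, lowest without control IgG replicate 3. Cd3d, a chain of the CD3 complex that carries the receptor's signal, was at 0.979, 2.38, 1.54 and 1.05 CPM in control IgG and 3.56, 2.93, 5.19, 2.76 and 4.13 CPM in control anti-CTLA-4 tumours, which did not overlap. The LDHA-KD values were 6.05, 6.41, 7.34, 5.59 and 6.83 CPM under IgG and 7.0, 8.59, 11.7, 12.5 and 8.12 CPM under blockade. The difference in response was -0.75 (-1.44 to -0.06). LDHA-KD tumours started from a higher level of the list, whose summed level was 57.2 to 95.3 CPM in control IgG against 153.8 to 234 CPM in LDHA-KD IgG tumours.

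The constant segments of the T cell receptor beta chain had differences of opposite sign. They are near copies that lie side by side on chromosome 6, Trbc1 at 41538218 to 41539881 and Trbc2 at 41546730 to 41548352. A T cell uses one or the other. Their coding segments of 521 bases, from GENCODE M21 on GRCm38, differ at 23 positions, and the first lies at base 260. The last 131 bases, which hold 19 of the differences (capitals), are shown 5′ to 3′ on the plus strand of the gene because reads from the rest can seldom be told apart:
Trbc2: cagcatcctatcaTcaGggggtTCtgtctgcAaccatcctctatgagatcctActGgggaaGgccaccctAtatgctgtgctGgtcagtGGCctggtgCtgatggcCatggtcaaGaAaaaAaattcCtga
Trbc1: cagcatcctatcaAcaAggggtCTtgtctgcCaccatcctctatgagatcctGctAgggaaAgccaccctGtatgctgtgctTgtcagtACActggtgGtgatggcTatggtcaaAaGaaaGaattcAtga
Of the 50-base stretches of the longest transcript, the read length of the run, 44% in Trbc2 and 41.1% in Trbc1 also occur in the other gene. Reads that did not align uniquely (10.2% to 14.1% per library) were held in a summary line and counted for no gene. Which reads from the shared stretches are among them is not stated, so the single values are uncertain.

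Trbc2 was at 1.40, 2.23, 2.43 and 1.40 CPM in control IgG tumours and at 5.53, 3.49, 7.47, 2.82 and 6.70 CPM with anti-CTLA-4, again without overlap. Its LDHA-KD levels were 7.73, 7.31, 9.81, 5.80 and 9.83 CPM under IgG and 8.25, 11.5, 12.3, 13.9 and 9.11 CPM under blockade, which overlapped. The responses of 1.47 ± 0.28 and 0.44 ± 0.24 differed by -1.03 (-1.79 to -0.27). Trbc1 was at 8.15, 4.09, 3.30 and 9.75 CPM in control IgG and 5.44, 5.24, 5.86, 4.77 and 6.67 CPM in control anti-CTLA-4 tumours, and at 6.13, 6.49, 6.30, 4.97 and 7.02 CPM and 8.42, 9.02, 10.2, 11.7 and 6.82 CPM in the LDHA-KD groups. The highest Trbc1 levels of control IgG tumours, in replicates 1 and 5, were in the libraries with the lowest Cd3d levels. Its difference was 0.75 (0.06 to 1.44). Cd4, the helper T cell coreceptor, differed by -0.43 (-1.21 to 0.36), and Cd8a, the coreceptor of cytotoxic T cells, by 0.03 (-1.20 to 1.27).

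DESeq2 called some genes within a tumour type at an adjusted p of 0.05 where edgeR and voom called 0, so these calls rest on DESeq2 alone. At an unadjusted p under 0.05 edgeR had 1346 genes (8.03%) in control tumours, 787 higher (4.69%) and 559 lower (3.33%), against 1205 (7.19%) in voom and 1437 (8.57%) in DESeq2. In LDHA-KD tumours edgeR had 1987 (11.9%), 1372 higher (8.18%) and 615 lower (3.67%), against 1850 (11%) and 2065 (12.3%). With adjustment DESeq2 called 11 higher in control tumours (0.0656%) and 0 lower, among them Lck and Zap70, kinases of the T cell receptor, Cd3d, Cd3g, Trbc2, Icos and Cd2, an adhesion receptor of T cells. All 11 had a negative difference, from -2.40 to -0.37, and 3 of them (Trbc2, Cd3d and Gimap7) had an unadjusted p under 0.05 for it in edgeR. For LDHA-KD tumours DESeq2 called 44 higher (0.262%) and 6 lower (0.0358%), including Ctla4, Tnfrsf9, an activation-induced costimulator, Il11, Lox, Fgf7, Ccl17 and Peg10, with Cirbp lower. Of these 50 genes, 42 had a positive difference and 14 an unadjusted p under 0.05 for it. Since they were chosen for a large value in 1 of the responses, their differences lean toward that response and support nothing further.

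Cytotoxic effector genes split into common and rare granzymes. Gzmb, the main killing protease of cytotoxic lymphocytes, was at 26.5, 34.3, 23 and 18.3 CPM in control IgG and 34.3, 30.7, 28.5, 34.2 and 44.3 CPM in control anti-CTLA-4 tumours. LDHA-KD tumours had it at 64.2, 38.5, 68.8, 59.9 and 65.9 CPM under IgG and 75.5, 109, 110.2, 94.2 and 67.7 CPM under blockade. The treated and IgG libraries overlapped in both tumour types, and the difference was 0.19 (-0.36 to 0.74). Prf1, which encodes the pore-forming protein perforin, differed by 0.69 (-0.48 to 1.86), with 13.5 CPM in LDHA-KD anti-CTLA-4 replicate 3 against 1.76 to 6.98 CPM in the other 4 libraries. Ifng, the cytokine of activated T and natural killer cells, differed by -0.13 (-1.46 to 1.21).

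Granzymes D, E, F and G, encoded near each other on chromosome 14 and close in sequence, had the largest differences of the list. The first 90 coding bases from GENCODE M21, 5′ to 3′ from the start codon on the minus strand of GRCm38, show how close they are, with capitals at the 8 positions that vary among them:
Gzme: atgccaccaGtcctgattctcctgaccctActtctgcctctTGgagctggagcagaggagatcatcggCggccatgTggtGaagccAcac
Gzmd: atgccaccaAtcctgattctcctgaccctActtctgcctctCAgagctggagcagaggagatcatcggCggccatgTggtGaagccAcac
Gzmf: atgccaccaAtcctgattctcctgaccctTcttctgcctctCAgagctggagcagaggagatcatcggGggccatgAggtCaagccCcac
Gzmg: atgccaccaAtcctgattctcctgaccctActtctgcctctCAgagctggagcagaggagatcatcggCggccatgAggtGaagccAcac
In Gzme, Gzmd and Gzmg, 20.6%, 21.9% and 19.8% of the 50-base stretches occur in another gene, in Gzmf 7.36%, and in Gzmb 0%.

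Gzme was at 11.6, 6.73, 7.30 and 9.21 CPM in control IgG tumours and at 5.29, 6.81, 4.54, 8.02 and 4.77 CPM with anti-CTLA-4. Levels in LDHA-KD tumours were 1.82, 1.97, 1.41, 1.61 and 1.85 CPM under IgG and 1.70, 1.54, 6.62, 3.11 and 4.47 CPM under blockade. Replicates 3, 4 and 5 of the last group were above all IgG libraries of that tumour type and replicates 1 and 2 were not. The responses of -0.56 ± 0.31 and 1.01 ± 0.32 differed by 1.57 (0.64 to 2.5).

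The same libraries stood out for the other members. Gzmf was at 1.86, 0.351, 11.2, 3.55 and 8.31 CPM in LDHA-KD anti-CTLA-4 replicates 1 to 5, against 1.49 to 2.72 CPM in the 5 LDHA-KD IgG tumours and 0.352 to 2.51 CPM in the 9 control tumours. Gzmg was at 1.53, 0.432, 12.2, 4.22 and 8.79 CPM in that group and Gzmd at 1.72, 0.918, 11, 3.82 and 8.49 CPM. The differences were 2.05 (0.12 to 3.99) for Gzmf, 2.03 (0.03 to 4.02) for Gzmg and 1.71 (0.28 to 3.14) for Gzmd. Without LDHA-KD anti-CTLA-4 replicates 3 and 5 they were 0.67, 0.63 and 0.45, and that of Gzme was 0.85. The 9 granzymes tested had a median difference of 1.09 with 7 positive and 4 higher at an unadjusted p under 0.05, and 0.45 with 6 positive and 1 higher without those libraries. The whole cytotoxic lymphocyte list of 18 genes had a median of 0.12, and the natural killer cell list, of which 12 of 16 genes were tested, one of -0.10, with Ncr1, an activating receptor of these cells, at -0.49 (-1.49 to 0.52).

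Interferon-induced genes had lower median responses in LDHA-KD tumours, none at an unadjusted p under 0.05 among the response lists. The 22 type I interferon response genes had a median response of 0.27 in the control type and -0.03 in the LDHA-KD type, and a median difference of -0.29 with 1 positive. Isg15, an interferon-induced ubiquitin-like protein, was at 111, 82.5, 62.4 and 73.5 CPM in control IgG and 106, 93.9, 105, 93.7 and 123 CPM in control anti-CTLA-4 tumours. The LDHA-KD values were 84.5, 116, 81.7, 94.5 and 97.2 CPM under IgG and 105, 70.9, 95.7, 92.0 and 98.3 CPM under blockade. The groups overlapped within each tumour type, and the difference was -0.38 (-0.79 to 0.04). Oas1a, a sensor of double-stranded RNA, differed by -0.34 (-0.70 to 0.01), Usp18, which removes ISG15 from proteins, by -0.42 (-0.91 to 0.08) and Irf7, a transcription factor of the interferon response, by -0.31 (-0.70 to 0.09). The median of the list ranged from -0.43 to -0.16 over the libraries left out in turn and was -0.42 without LDHA-KD anti-CTLA-4 replicates 3 and 5, with 0 of 22 positive and 5 lower at an unadjusted p under 0.05. Of the 50-base stretches of Oas1a, 57.6% also occur in Oas1g, so its value is uncertain.

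The interferon-gamma response list turned on 1 library. Its 24 genes had median responses of 0.43 and 0.25 and a median difference of -0.16 with 3 positive, but without control anti-CTLA-4 replicate 5 the median was 0.19 with 20 positive. Cxcl10, a chemokine that draws activated T cells, had a difference of -0.44 (-1.20 to 0.31), and Gbp11, a guanylate-binding protein induced by interferon-gamma, one of -1.16 (-2.31 to -0.01). Gbp11 was at 3.83 CPM in control anti-CTLA-4 replicate 5 and at 0.724 to 1.45 CPM in the other 4 libraries of that group. The 11 guanylate-binding proteins tested, several of which are also in the interferon-gamma response list, were all at a negative difference (median -0.20). Of them 8 were positive without that library (median 0.18). MHC class I presentation, 14 genes tested, had a median of -0.19 with 1 positive, and -0.12 without that library. Over the libraries left out in turn it ran from -0.33 (control IgG replicate 1) to -0.064 (control IgG replicate 4). Psmb10 and Psmb9, subunits of the immunoproteasome that cuts peptides for MHC class I, differed by -0.27 (-0.74 to 0.21) and -0.36 (-1.14 to 0.41), and H2-M3, a non-classical class I molecule, by -0.26 (-0.66 to 0.14). The 10 MHC class II presentation genes had a median of -0.12 with 2 positive, which ran from -0.24 without control IgG replicate 5 to -0.00014 without LDHA-KD anti-CTLA-4 replicate 2.

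**Figure D3:**
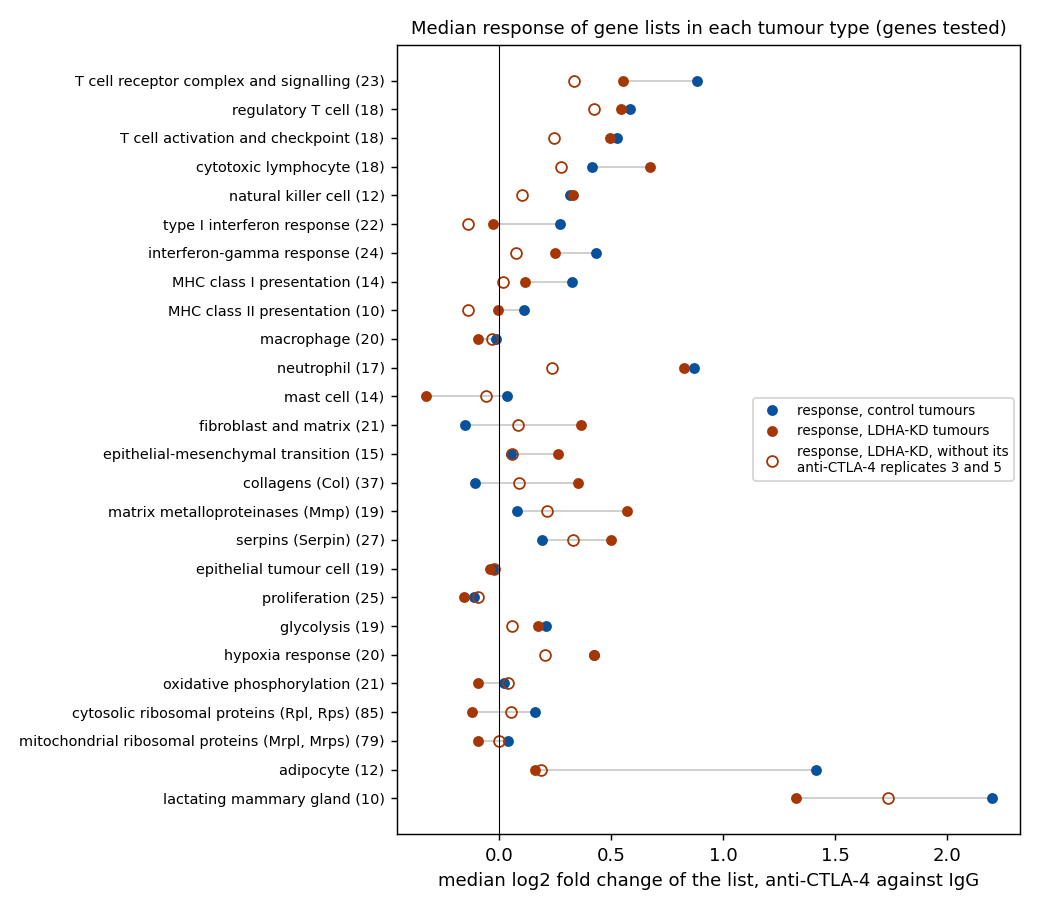
Median log2 fold change for anti-CTLA-4 against IgG (x axis) of 26 gene lists and families, with the number of genes tested in brackets, in control tumours (blue) and LDHA-KD tumours (red), and in LDHA-KD tumours without their anti-CTLA-4 replicates 3 and 5 (open circles). Fibroblast and matrix genes were at -0.15 and 0.36, and at 0.08 in the open circle, while type I interferon genes were at 0.27 and -0.03, and at -0.14.

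Matrix genes of fibroblasts had the opposite pattern to the interferon genes. All 21 genes of the fibroblast and matrix list had a positive difference, with a median of 0.42, median responses of -0.15 in the control type and 0.36 in the LDHA-KD type, and 4 higher at an unadjusted p under 0.05 (Col12a1, Col1a2, Col5a2 and Col1a1). Col1a1, the main chain of type I collagen, was at 719, 1047, 1283 and 960.2 CPM in control IgG and 741, 1169, 1085, 679 and 873 CPM in control anti-CTLA-4 tumours. Its LDHA-KD levels were 507, 575, 630.0, 518 and 515 CPM under IgG and 508, 451, 1472, 813 and 1058 CPM under blockade. Replicates 3, 4 and 5 of the last group were above all IgG libraries of that tumour type and replicates 1 and 2 were not. The difference was 0.79 (0.03 to 1.55), and 0.25 without replicates 3 and 5. Col1a2, the second chain of type I collagen, differed by 0.79 (0.10 to 1.47), Col12a1, a fibril-associated collagen, by 0.74 (0.11 to 1.36) and Col5a2, a chain of type V collagen, by 0.55 (0.06 to 1.05). Without LDHA-KD anti-CTLA-4 replicates 3 and 5, 18 of the 21 stayed positive, 0 were at an unadjusted p under 0.05 and the median was 0.25. The list's summed level was 5325 to 6545 CPM in LDHA-KD IgG tumours and 5054 to 11061 CPM in LDHA-KD anti-CTLA-4 tumours. Its median exon length of 5838 bases lies in the fifth of genes of 4711 to 7006 bases, of which 58.3% had a positive difference.

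Matrix families leaned the same way. Of 37 collagens tested, 30 were positive with a median of 0.30 and 6 higher, and of 19 matrix metalloproteinases, enzymes that cut matrix proteins, 18 were positive with a median of 0.32 and 2 higher. The collagens include Col12a1, Col1a2, Col5a2, Col1a1 and other genes of the fibroblast and matrix list, so their counts are not separate from those of that list. Without LDHA-KD replicates 3 and 5 of the blockade group the collagen median was 0.13 with 26 positive and 0 higher, and that of the metalloproteinases 0.17 with 14 positive and 0 higher. Leaving out control IgG replicate 3 gave 0.20 for the metalloproteinases. The collagens' median exon length of 7021 bases is in the fifth of longest genes, of which 72.9% had a positive difference. Mmp19 differed by 1.37 (0.20 to 2.54) and Mmp17, which is anchored to the membrane, by 0.88 (0.04 to 1.72), and 0.40 without those 2 LDHA-KD libraries. The 27 serpins tested had a median of 0.36 with 5 higher, against 0.14 with 2 higher without LDHA-KD anti-CTLA-4 replicates 3 and 5. Leaving out control IgG replicate 3 gave a median of 0.11 with 1 higher.

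Laminins are chains of the basement membrane. Lama1 (chromosome 17, 67697259 to 67822647) was at 0.635, 0.929, 0.839 and 1.34 CPM in control IgG and 0.294, 0.492, 0.363, 0.429 and 0.483 CPM in control anti-CTLA-4 tumours, which did not overlap. LDHA-KD tumours had it at 0.789, 0.667, 0.612, 0.957 and 0.708 CPM under IgG and 0.535, 0.675, 0.952, 0.637 and 0.692 CPM under blockade, which did. The responses of -1.17 ± 0.24 and -0.10 ± 0.22 differed by 1.08 (0.40 to 1.75), and by 0.89 without LDHA-KD replicates 3 and 5. Lamc3 differed by 1.01 (0.30 to 1.72). Of the 11 laminins 10 were positive, with a median of 0.14, and 8 with a median of 0.08 when LDHA-KD replicates 3 and 5 were left out. With single libraries left out the median ran from 0.056 (without control IgG replicate 4) to 0.27 (without control IgG replicate 5). The median laminin exon length of 9681 bases lies in the fifth of longest genes, where 72.9% of all genes were positive.

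Genes of the epithelial-mesenchymal transition list had 14 of 15 positive differences, a median of 0.29 and 4 higher at an unadjusted p under 0.05. By median exon length (4933 bases) the list falls among genes of 4711 to 7006 bases, of which 58.3% had a positive difference. Without LDHA-KD anti-CTLA-4 replicates 3 and 5 the counts of the list were 9 and 1 and the median was 0.05. Tnc, which encodes the matrix glycoprotein tenascin C, was at 1236, 1332, 1267 and 1003 CPM in control IgG and 995, 1063, 1042, 1034 and 1106 CPM in control anti-CTLA-4 tumours. Levels in LDHA-KD tumours were 391, 445, 399, 447 and 419 CPM under IgG and 404, 466, 941, 630.3 and 743 CPM under blockade. The difference of 0.81 (0.32 to 1.29) was 0.46 without those libraries. Snai2, a transcription factor that represses epithelial genes, differed by 0.81 (0.10 to 1.51), and Sparc, a collagen-binding matrix protein, by 0.50 (0.03 to 0.97), of which 0.16 was left without them. Lox, which cross-links collagen and is also in the hypoxia list, differed by 0.91 (0.14 to 1.68), and by 0.26 without them.

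Among all genes, the difference with the smallest p was that of Stc1 (chromosome 14, 69029238 to 69041804), which encodes the secreted glycoprotein stanniocalcin 1. It was at 67.1, 62.1, 57.7 and 72.5 CPM in control IgG and 48.6, 58.1, 42.3, 57.8 and 50.4 CPM in control anti-CTLA-4 tumours, which overlapped slightly. The LDHA-KD values were 17.0, 17.1, 16.6, 18.0 and 16.8 CPM under IgG and 19, 18.8, 26.8, 22.1 and 24.2 CPM under blockade, which did not overlap. The responses were -0.33 ± 0.11 and 0.38 ± 0.10, a difference of 0.71 (0.40 to 1.02), and 0.56 without LDHA-KD replicates 3 and 5.

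**Figure D4:**
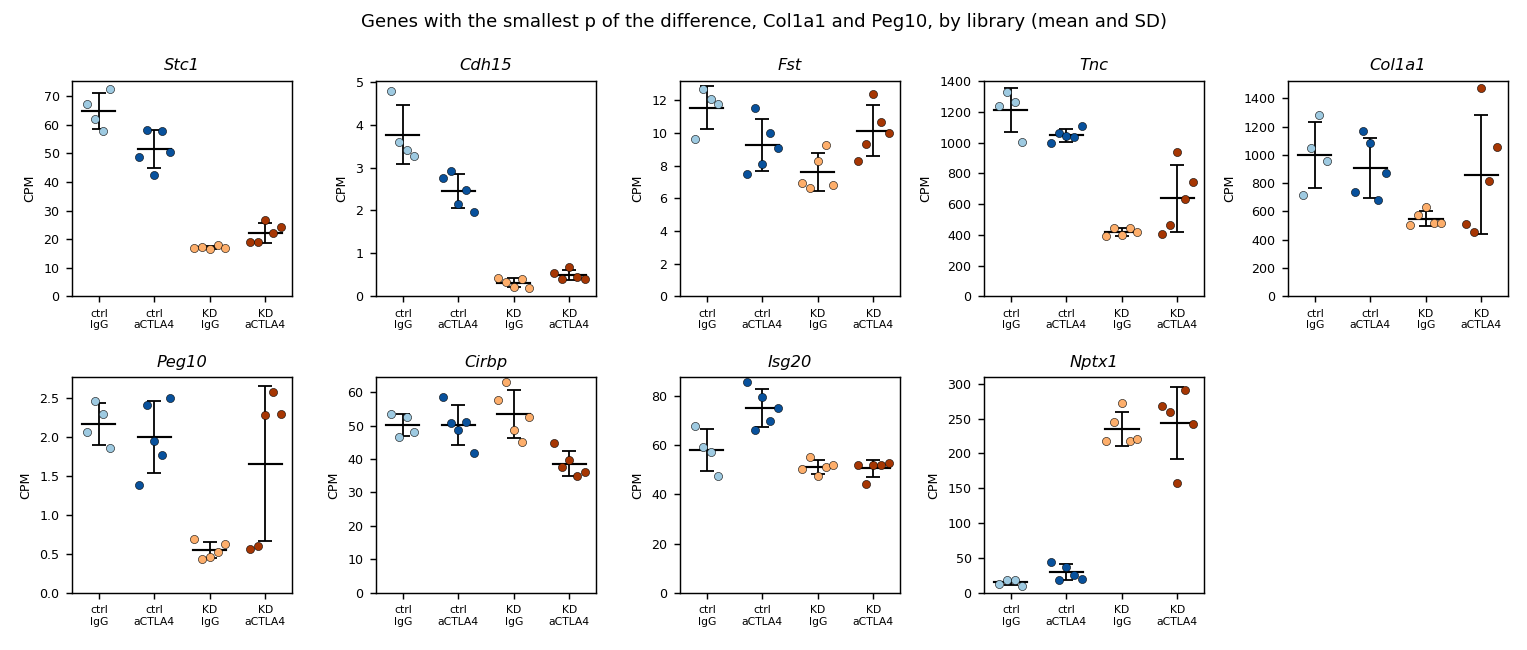
Level in CPM (y axis, from 0) of 9 genes in each of the 19 libraries, by tumour type and treatment (x axis, as in the plot of lymphocyte genes), with the mean and SD of each group. Stc1, Cdh15 and Fst had lower means with anti-CTLA-4 in control tumours and higher means in LDHA-KD tumours, and Tnc, Col1a1 and Peg10 were spread widely among the 5 LDHA-KD anti-CTLA-4 tumours.

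Of the next genes in order of p with a positive difference, Cdh15, which encodes the muscle cadherin M-cadherin, was at 4.79, 3.60, 3.41 and 3.28 CPM in control IgG and 2.76, 2.93, 2.15, 2.47 and 1.96 CPM in control anti-CTLA-4 tumours, without overlap. Its LDHA-KD levels were 0.421, 0.333, 0.214, 0.401 and 0.191 CPM under IgG and 0.535, 0.405, 0.677, 0.441 and 0.399 CPM under blockade, levels at which few reads were counted. Its difference was 1.27 (0.62 to 1.92). Fst, which encodes the activin antagonist follistatin, was at 9.66, 12.7, 12.1 and 11.8 CPM and 7.49, 11.5, 8.12, 9.98 and 9.05 CPM in the control groups and at 6.94, 6.62, 8.29, 9.29 and 6.80 CPM and 8.28, 9.34, 12.4, 10.7 and 9.98 CPM in the LDHA-KD groups. Treated and IgG libraries overlapped in both, and the difference was 0.74 (0.33 to 1.15).

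The others followed with smaller or less precise values. Rarb, a retinoic acid receptor, differed by 1.13 (0.48 to 1.77), Wisp1, a matricellular protein of the CCN family, by 0.78 (0.33 to 1.24), Efnb3, an ephrin ligand, by 0.89 (0.37 to 1.42), Gulp1, an adaptor in the engulfment of dying cells, by 0.90 (0.36 to 1.43) and Lrrc8c, a subunit of volume-regulated anion channels, by 0.34 (0.14 to 0.54). Peg10, an imprinted gene derived from a retrotransposon, came next by p and was chosen after its values were seen. It was at 0.684, 0.436, 0.459, 0.525 and 0.626 CPM in LDHA-KD IgG tumours and at 0.558, 0.594, 2.28, 2.57 and 2.29 CPM in LDHA-KD anti-CTLA-4 replicates 1 to 5, against 1.38 to 2.5 CPM in the 9 control tumours. Replicates 1 and 2 were within the range of the LDHA-KD IgG tumours and replicates 3 to 5 were above it, while Ldha was at 485 to 584 CPM in all 5. Its difference was 1.71 (0.66 to 2.76), and 1.30 without replicates 3 and 5.

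Among genes with a negative difference taken by the same rule, Cirbp had the smallest p. Cirbp, a cold-inducible RNA-binding protein, was at 53.4, 46.5, 52.6 and 48.0 CPM and 58.6, 50.7, 48.7, 51.2 and 41.9 CPM in the control groups. LDHA-KD tumours had it at 57.7, 63.0, 48.8, 45.1 and 52.5 CPM under IgG and 44.7, 37.7, 39.7, 35.0 and 36.1 CPM under blockade, every treated library below every IgG library. The responses of 0.00 ± 0.10 and -0.47 ± 0.10 differed by -0.47 (-0.77 to -0.17). Leaving out the LDHA-KD replicates 3 and 5 gave -0.45.

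Isg20, an interferon-induced exonuclease, was at 68.1, 59.5, 57.1 and 47.4 CPM in control IgG and 85.6, 66.2, 79.6, 70.1 and 75.1 CPM in control anti-CTLA-4 tumours. Levels in LDHA-KD tumours were 50.2, 55.5, 47.5, 51.4 and 51.8 CPM under IgG and 52.1, 44.4, 51.8, 52.0 and 52.9 CPM under blockade. The groups overlapped within each tumour type. The responses of 0.38 ± 0.09 and -0.02 ± 0.09 gave a difference of -0.39 (-0.66 to -0.13). Nptx1, a neuronal pentraxin, was at 12.8, 18.5, 17.5 and 9.47 CPM in control IgG and 44.4, 18.0, 37.5, 25.8 and 19.6 CPM in control anti-CTLA-4 tumours, against 157 to 290.5 CPM in the 10 LDHA-KD tumours, and differed by -0.94 (-1.63 to -0.25). Borcs5, a subunit of a lysosome-positioning complex, differed by -0.51 (-0.88 to -0.15), Iah1, an esterase, by -0.47 (-0.81 to -0.13), Tmem192, a lysosomal membrane protein, by -0.32 (-0.56 to -0.09), Sirt5, a mitochondrial desuccinylase, by -0.29 (-0.51 to -0.08) and Cbr1, a carbonyl reductase, by -0.36 (-0.63 to -0.09). In Sirt5, 36.2% of the 50-base stretches occur in other genes. For other genes named in the text, the share was 72.2% in Eno1, 31.5% in Rps15, 27.2% in Gapdh and 27% in Ldhb. It was 19.2% in Gbp11, 16.6% in Ldha and 13.5% in Ifng. Which reads from such stretches were set aside as not uniquely aligned is not stated.

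**Figure D5:**
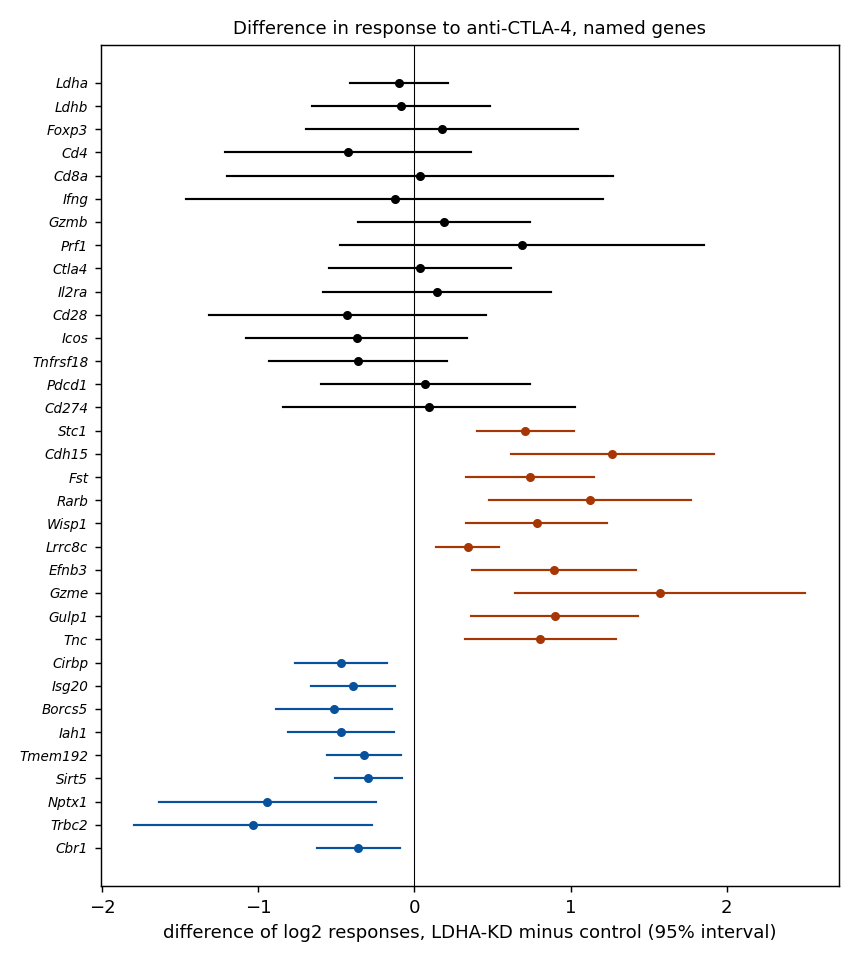
Difference of the log2 responses, LDHA-KD minus control (x axis), with its 95% interval for 15 genes shown whatever their values (black) and genes of smallest p with a positive (red, 10 genes) or negative (blue, 9 genes) difference. The intervals of the 15 all include 0, those of the other 19 do not by their choice, and no gene passed the adjusted threshold.

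Ribosomal and respiratory genes had small negative differences in large number. Of 85 cytosolic ribosomal protein genes, 3 had a positive difference, 7 were lower at an unadjusted p under 0.05, and the median was -0.27, with median responses of 0.16 in control and -0.12 in LDHA-KD tumours. Rps15 was at 902, 706, 761 and 715 CPM and 1077, 752, 1049, 768 and 949 CPM in the control groups and at 1045, 1008, 1141, 912 and 992 CPM and 1099, 874, 813, 939 and 937 CPM in the LDHA-KD groups, which overlapped within each tumour type, and differed by -0.38 (-0.72 to -0.04). Mitochondrial ribosomal proteins (79 tested, 7 positive) had a median of -0.14, the 21 oxidative phosphorylation genes (1 positive) one of -0.13, with Cox4i1, a subunit of cytochrome oxidase, at -0.27 (-0.54 to 0.00), and the 39 proteasome subunits (2 positive) one of -0.13. The cytosolic ribosomal median was -0.10 with 24 positive, and that of oxidative phosphorylation -0.01 with 10 positive, without LDHA-KD anti-CTLA-4 replicates 3 and 5. The same omission gave -0.04 with 26 positive for mitochondrial ribosomal proteins and -0.01 with 17 positive for the proteasome. By median exon length the cytosolic ribosomal genes (1739 bases) fall in the fifth of shortest genes, whose median difference over all genes was -0.10. The other lists (2172 to 3130 bases) fall in the next class of length, genes of 1963 to 3221 bases, with a median of -0.03.

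Glycolysis, the pathway nearest to the knockdown, had a median difference of -0.08 over 19 genes, 6 of them positive and 0 at an unadjusted p under 0.05, with median responses of 0.21 and 0.17. Slc16a3, which encodes the lactate exporter MCT4, differed by 0.51 (-0.14 to 1.15), and by 0.03 without LDHA-KD replicates 3 and 5. Gapdh and Eno1, glycolytic enzymes with many copies elsewhere in the genome, differed by -0.18 (-0.50 to 0.13) and -0.16 (-0.39 to 0.08). The 20 hypoxia response genes had a median of 0.04 with 11 positive, the 25 proliferation genes one of -0.05, the 18 amino acid stress genes one of 0.04, and the 19 genes of the TCA cycle one of -0.10, with Idh3b, a subunit of isocitrate dehydrogenase, at -0.20 (-0.37 to -0.03).

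Values for secreted signals and other immune cells varied by gene and by list. Fgf7, a fibroblast growth factor for epithelium, was at 4.05, 3.92, 4.25, 3.86 and 3.78 CPM in LDHA-KD IgG and 4.49, 4.19, 17.2, 9.22 and 11.6 CPM in LDHA-KD anti-CTLA-4 tumours, against 3.51 to 6.88 CPM in the 9 control tumours. Its difference was 0.95 (0.07 to 1.83), and 0.30 without LDHA-KD replicates 3 and 5. Ccl17, a chemokine of dendritic cells that draws CCR4-bearing T cells, differed by 1.23 (0.13 to 2.32), and Il11, a cytokine of the interleukin-6 family, by 0.94 (0.05 to 1.84). Leaving out the same 2 libraries gave 0.49 for Ccl17 and 0.10 for Il11. Xcr1, the receptor that marks cross-presenting dendritic cells, differed by -1.17 (-2.12 to -0.21) at no more than 4.59 CPM in any library. The B cell genes Pax5 and Cd79b differed by -1.25 (-2.32 to -0.18) and -0.93 (-1.75 to -0.10), at no more than 0.744 and 1.31 CPM. The lists of these cells had medians of 0.02 for dendritic cells (9 of 16 positive), 0.02 for B cells (5 of 10), -0.01 for macrophages (10 of 20) and -0.10 for neutrophils (7 of 17). The neutrophil median was -0.64 with 1 positive without LDHA-KD anti-CTLA-4 replicates 3 and 5. Leaving out control anti-CTLA-4 replicate 5 turned it to 0.13 with 11 positive. The mast cell list was at -0.30 (2 of 14 positive), from -0.53 without LDHA-KD anti-CTLA-4 replicate 1 to -0.20 without LDHA-KD IgG replicate 1, and at -0.13 without both LDHA-KD libraries. The eosinophil list, with 6 of 10 genes tested, had a median of 0.95, where all 6 were positive, 0 had an unadjusted p under 0.05 and the summed level did not pass 30.1 CPM in any library. That median was 0.40 without control IgG replicate 3 and 0.51 without both LDHA-KD libraries, with all 6 positive in each.

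Tissue that can be carried along with a tumour differed between libraries. The 12 adipocyte genes tested all had a negative difference, with a median of -1.11. Adipoq, the fat cell hormone adiponectin, was at 2.86, 5.31, 4.30 and 13.1 CPM in control IgG and 6.11, 11.9, 19.95, 4.16 and 58.2 CPM in control anti-CTLA-4 tumours, and at 4.34, 5.33, 8.93, 7.22 and 8.44 CPM and 8.35, 4.75, 3.36, 9.51 and 11.5 CPM in the LDHA-KD groups. Replicate 5 of the control anti-CTLA-4 tumours was the highest, and the summed adipocyte level there was 1139 CPM against 145 to 514 CPM in the other 18 libraries. Without that library the median was -0.36, and -0.06 with 5 positive when replicates 3 and 5 of both blockade groups were left out. The same library had the highest Gbp11 level and the highest summed interferon-gamma response level of all 19, the latter at 4973 CPM. The lactating mammary gland list (10 of 12 tested) had a median of -0.91 and -0.14 without that library, and turned to 0.83 with 8 positive without replicates 3 and 5 of both blockade groups. The skin list (17 of 20 tested) had a median of 0.36 and -0.40 without control IgG replicate 3. The nerve and Schwann cell list (9 of 12 tested) had one of 0.59, which was 0.39 when LDHA-KD anti-CTLA-4 replicate 3 or control anti-CTLA-4 replicate 1 alone was left out, and 0.15 without LDHA-KD replicates 3 and 5 of that treatment. In it Ngfr, a neurotrophin receptor, differed by 1.76 (0.49 to 3.03), and by 1.08 without LDHA-KD anti-CTLA-4 replicate 4. The part of these tissues in the other differences was not tested.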

How the data were processed

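Bulk RNA was sequenced from 19 tumours in 4 groups. Per the labels' protocols, 500 ng of RNA per tumour went through polyA selection and a stranded library kit and was read as paired 50-base reads. The authors deposited unnormalised counts of reads per gene, and the submitters' processing notes name HTSeq 0.5.3, Picard 1.124 and the build mm10 with no role or order. The sources used here name no aligner, annotation or strand setting, so overlapping and antisense genes cannot be told apart. The 5 summary lines of each count column were left out (8.42% to 13.8% of reads lay outside genes). Of 46983 gene IDs, 46488 matched GENCODE M21 on GRCm38.

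From these counts edgeR 4.0.16 (R 4.3.3) was run with TMM scaling, its expression filter by group (16763 genes kept), a single model over the 4 groups and the quasi-likelihood F test, with Benjamini-Hochberg adjustment at 0.05. The SE is the absolute log2 value divided by the square root of the F statistic of the same fit. The 95% interval uses that SE and the t distribution, so both are approximate. Limma 3.58.1 voom, DESeq2 1.42.0, other filters and scalings, a replicate block and libraries left out were alternatives. No gene passed, so named genes are 15 T cell and target genes shown whatever their values, the 10 of smallest p in each direction with no predicted symbol and mean log2 CPM not below 0, and up to 4 of smallest p per list described. A few genes this rule names are not reported here. Other genes named, such as Peg10 and those DESeq2 called within a tumour type, were chosen after their values were seen. The 38 gene lists and 47 symbol families, and the members named, were chosen with earlier results of these data known. The labels do not say that a replicate number marks a shared animal or batch, so samples were not treated as paired. No 2 libraries agreed within sampling noise. The model was tested on simulated data drawn without the shifts between libraries described above, so that test does not cover them.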

Additional observations from a re-analysis of the deposited data

Results flagged for a closer look

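For the 30 genes whose levels were looked at by library, the highest or lowest library of each group was compared with its neighbours by Dixon's ratio, the gap to the nearest library divided by the range of the group. In 120 groups 6 libraries passed the 95% critical value (0.829 for 4 libraries, 0.710 for 5). Chance alone passes about 1 group in 20, so these 6 are no more than chance alone gives on average. Of these, 3 were control anti-CTLA-4 replicate 5: Cd274 at 129.8 CPM (ratio 0.799), Gbp11 at 3.83 CPM (0.766) and Ctla4 at 8.63 CPM (0.732). The others were Isg20 at 44.4 CPM in LDHA-KD anti-CTLA-4 replicate 2 (0.881), the lowest of its group, and, in LDHA-KD IgG tumours, Gzmf at 2.72 CPM in replicate 4 (0.862) and Sparc at 838 CPM in replicate 3 (0.772). Control anti-CTLA-4 replicate 5 also held the highest summed adipocyte level, and the part of that tissue in its interferon-gamma values was not tested.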

How the results depend on the processing

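No alternative called a gene for the difference in response at an adjusted p of 0.05. DESeq2 called 11 genes in control and 50 in LDHA-KD tumours where edgeR called 0, and over the libraries left out in turn edgeR called 0 to 1 in LDHA-KD tumours (1 when LDHA-KD anti-CTLA-4 replicate 1 was left out). At an unadjusted p under 0.05, the 260 higher and 155 lower genes became 560 and 347 with no filter on low counts, 344 and 297 with the replicate block, 143 and 165 with LDHA-KD anti-CTLA-4 tumours 3 and 5 left out, and 98 and 62 with tumours 3 and 5 of both anti-CTLA-4 groups left out. With 1 library left out they ranged from 138 (without LDHA-KD anti-CTLA-4 replicate 3) to 589 (without LDHA-KD anti-CTLA-4 replicate 1) and from 114 (without control anti-CTLA-4 replicate 3) to 507 (without LDHA-KD anti-CTLA-4 replicate 1). They were 522 and 506 without control IgG replicate 1. The higher share of these genes was 62.7%, and 54.9% with voom, 53.7% with the replicate block and 45.8% with the share of reads outside genes as a covariate. The causes were not tested. Same-numbered libraries deviated together (r over 0.1) in 15 of 27 pairs (median r 0.12), against 29 of 108 differently numbered pairs (median r -0.042), and 5 of 19 libraries correlated best with their own number.

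Some named genes changed sign under an alternative. With replicates 3 and 5 of the LDHA-KD anti-CTLA-4 group left out, the differences were 0.13 for Ldhb, -0.24 for Foxp3, -0.38 for Cd8a, -0.17 for Ctla4, -0.20 for Pdcd1 and -0.57 for Cd274. With those numbers left out of both anti-CTLA-4 groups they were 0.11 for Ldhb, -0.059 for Foxp3, -0.42 for Cd8a, 0.10 for Ifng, -0.0086 for Prf1, -0.024 for Ctla4, -0.048 for Pdcd1 and -0.33 for Cd274. With the covariate they were -0.028 for Foxp3, -0.13 for Cd8a, -0.030 for Ctla4, -0.051 for Pdcd1 and -0.22 for Cd274. With the replicate block they were -0.17 for Cd8a, -0.064 for Ctla4, -0.084 for Pdcd1 and -0.10 for Cd274. With voom they were -0.28 for Cd8a, 0.12 for Ifng, -0.019 for Pdcd1 and -0.057 for Cd274. Over the libraries left out in turn they ran from -0.21 to 0.38 for Cd274, -0.29 to 0.28 for Cd8a, -0.17 to 0.16 for Ctla4, -0.040 to 0.37 for Foxp3, -0.37 to 0.53 for Ifng, -0.15 to 0.40 for Il2ra, -0.21 to 0.036 for Ldhb and -0.082 to 0.23 for Pdcd1. Precision is lowest for genes with few counts.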
